A study of Mus musculus with 12 samples.

Results

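Transcripts of 8 genes of catecholamine and glutamate transmission were followed in mouse sensory neurons: Th, Ddc, Dbh, Slc18a2, Slc6a2, Slc17a6, Slc17a7 and Slc17a8. They are 8 of the 22609 genes listed for every library and were taken by symbol, as the genes whose combination separates low-threshold C-fibre neurons from sympathetic neurons. They were selected on their levels in trigeminal ganglion (TG) against dorsal root ganglion (DRG) libraries, which were known when the choice was made, so the differences between ganglia of these 8 genes are given as a description, without a test. RNA came from neuron-enriched Percoll fractions (a density gradient) of naive mice labelled as C57BL and as 3 to 4 months old. The study's methods name the strain C57BL/6J, give a younger range of ages, and describe the DRG as lumbar and the females as being in the estrous phase. There were 3 libraries of each sex from each ganglion, 12 in 4 groups, all made from total RNA depleted of ribosomal RNA, and no mouse carried a transgene or received a treatment. The labels do not say whether libraries of a group came from separate animals or pools, so p-values measure the spread between libraries, which may be technical.

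Tyrosine hydroxylase, encoded by Th, makes L-DOPA in the rate-limiting step of catecholamine synthesis. DOPA decarboxylase (Ddc) turns L-DOPA into dopamine, the vesicular monoamine transporter (Slc18a2) loads it into vesicles, dopamine beta-hydroxylase (Dbh) converts it to noradrenaline, and the noradrenaline transporter (Slc6a2) takes released noradrenaline back up. Sympathetic neurons use this whole pathway, whereas C-low-threshold mechanoreceptors (C-LTMRs), unmyelinated neurons of hairy skin, are known in DRG for Th together with the vesicular glutamate transporter Slc17a8. The vesicular glutamate transporters Slc17a6 and Slc17a7 serve glutamate release in most other sensory neurons, Slc17a7 mainly in large myelinated ones.

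The promoters of the first synthesis enzyme, of the vesicle loader and of the enzyme that marks noradrenergic cells are shown. These 3 genes were picked with their levels in the DRG libraries known. Th was well above the other genes there, while Slc18a2 was near the floor and Dbh had no reads. Each runs from 250 bases before the gene start to 50 bases after it, 5′ to 3′ on the gene's strand, from RefSeq on build GRCm38.p6. Capitals mark the cyclic AMP response element TGACGTCA, a palindrome.
Th, chr7:142899946-142900245, minus strand: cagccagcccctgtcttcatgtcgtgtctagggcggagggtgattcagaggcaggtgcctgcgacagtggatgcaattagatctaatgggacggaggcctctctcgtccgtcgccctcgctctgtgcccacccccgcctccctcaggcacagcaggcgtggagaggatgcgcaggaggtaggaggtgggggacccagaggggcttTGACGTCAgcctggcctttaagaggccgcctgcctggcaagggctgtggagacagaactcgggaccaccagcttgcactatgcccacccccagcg
Slc18a2, chr19:59260628-59260927, plus strand: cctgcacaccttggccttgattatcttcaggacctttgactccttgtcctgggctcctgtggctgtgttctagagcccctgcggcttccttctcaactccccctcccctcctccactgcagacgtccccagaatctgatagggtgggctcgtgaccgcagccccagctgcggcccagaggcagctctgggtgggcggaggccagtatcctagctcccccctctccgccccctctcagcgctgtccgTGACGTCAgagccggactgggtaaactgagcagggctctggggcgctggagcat
Dbh, chr2:27165257-27165556, plus strand: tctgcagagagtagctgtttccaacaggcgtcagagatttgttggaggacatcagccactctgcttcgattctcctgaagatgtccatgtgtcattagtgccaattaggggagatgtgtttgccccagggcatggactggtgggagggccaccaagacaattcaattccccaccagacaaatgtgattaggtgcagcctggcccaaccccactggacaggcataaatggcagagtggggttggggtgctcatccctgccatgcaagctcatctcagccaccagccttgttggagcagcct
The element began 45 bases before the start of Th and 4 bases before that of Slc18a2, and its letters were not in the Dbh window. Of 32851 promoters of this length, 588 (1.79%) held it on either strand. The table held 10 promoters for 7 of the 8 genes, and the element was in those of Th and Slc18a2 only. TATAAA, searched on both strands, was in a promoter of Ddc (13.6% of all promoters), and TAATTA, the same on both strands, was in promoters of Slc17a6 and Slc17a8 (5.29%). These are matches of letters and show no binding.

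Between 7511765 and 15396090 reads per library fell in genes (median 11663521.5), so that 3 reads, taken as the floor, stood for 0.195 to 0.399 CPM (reads of a gene scaled to a common library total). Floors cover counting error only. Female DRG 1 was the shallowest library and held most reads outside genes (50.4%, against 37.6% in the lowest library), and female TG 3 stood apart in an earlier analysis of these data. Results that rest on either library are given with and without it. All 10 pan-neuronal markers were found in every library, with a summed level of 4800 to 9428 CPM in DRG and 4538 to 7923 CPM in TG. The fractions also held glial RNA: the 6 satellite glia markers summed to 2146 to 5245 CPM in DRG and 3385 to 6143 CPM in TG, and the 6 Schwann cell markers to 1785 to 2767 CPM and 1867 to 2784 CPM. Whether cell composition had a part in the levels below was not tested, and in such bulk samples fewer cells of a type and less RNA per cell cannot be told apart.

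Th (mm9 chr7:150078657-150117033, minus strand) was the member that separated the ganglia. Its level was 50.1, 74.7 and 89.4 CPM in the female DRG libraries and 82.2, 77.2 and 71.4 CPM in the male ones. In TG it was 4.84, 9.72 and 8.12 CPM in females and 5.46, 6.98 and 4.42 CPM in males. Every DRG library was far above every TG library, and even the lowest TG library held 45 Th reads. The ratio of the DRG mean to the TG mean was 9.45 in females and 13.7 in males, and without both libraries that stand apart the log2 fold change of TG over DRG was -3.63 against -3.50 ± 0.24 (SE, n = 6 libraries of each ganglion) with them. Th was the 1 member without overlap between the ganglia. Among all 14829 genes tested, 0.364% had every DRG library above every TG library, 0.998% the reverse, and 1.36% no overlap in either direction. The contrast chose the members, so nothing is read from this count. Relative to the summed pan-neuronal markers, Th stood at 0.829 to 1.48% in DRG and at 0.0692 to 0.214% in TG.

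**Figure D1:**
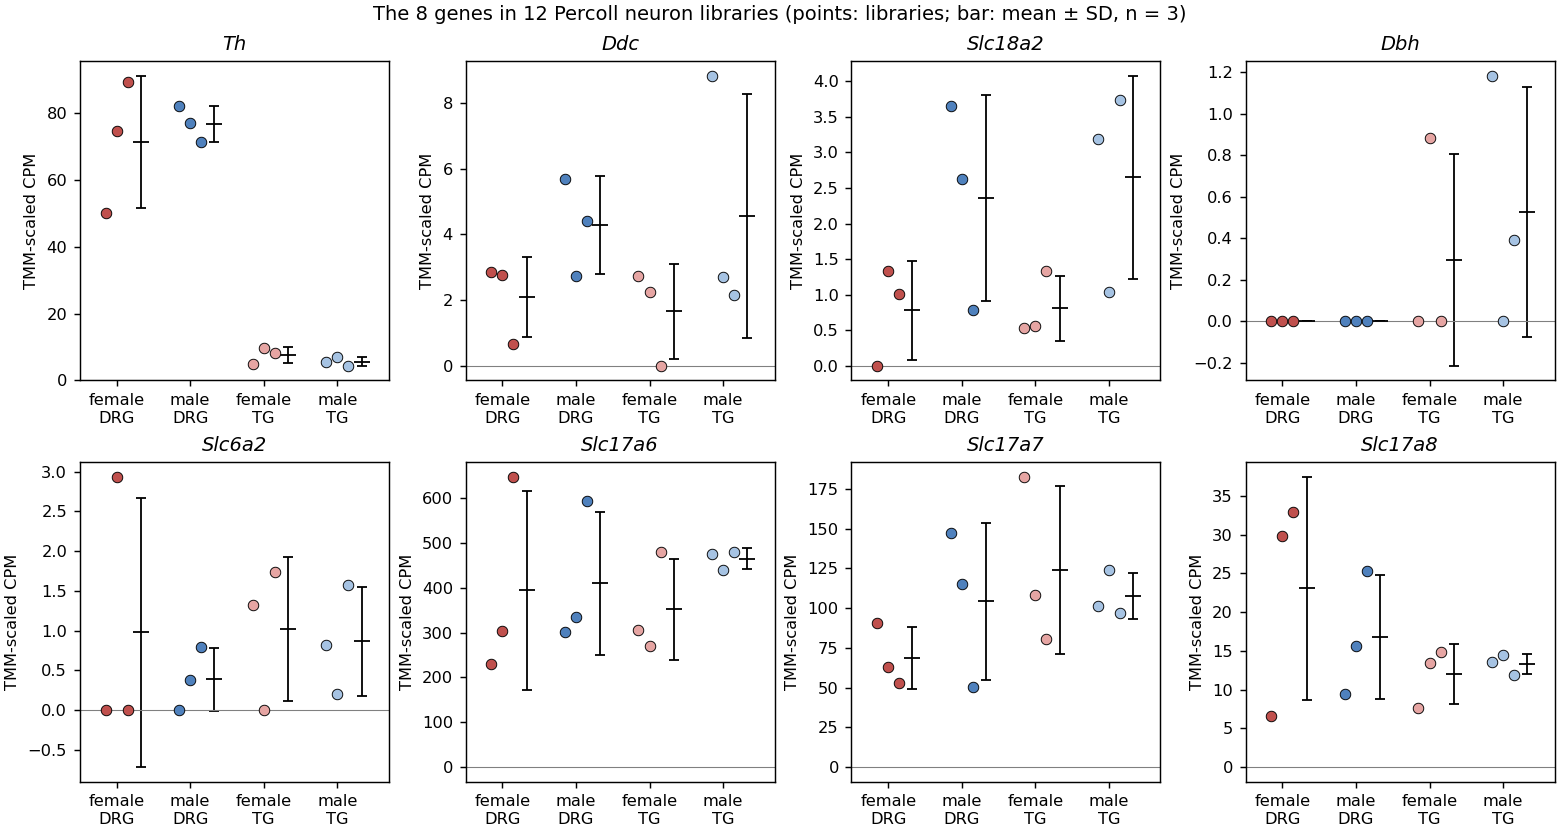
TMM-scaled CPM of the 8 genes (vertical axes, each panel on its own scale) in the 4 groups, with a point for each library and the mean ± SD beside it (n = 3). Th lies between 50.1 and 89.4 CPM in the DRG libraries and between 4.42 and 9.72 CPM in the TG libraries, whereas the other 7 genes overlap between the ganglia.

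Downstream of Th, Ddc (mm9 chr11:11714104-11798047, minus strand) was low and did not follow Th. In DRG it had 2.85, 2.76 and 0.678 CPM in females and 5.70, 2.72 and 4.41 CPM in males. In TG it had 2.73, 2.25 and 0 CPM in females and 8.83, 2.69 and 2.16 CPM in males. The ganglia overlapped, with a log2 fold change of TG over DRG of -0.12 ± 0.81 (SE). Per kilobase of exon, Th exceeded Ddc 26.5- to 243-fold in the DRG libraries and 1.14- to 7.96-fold in the 5 TG libraries that had Ddc reads. Female DRG 3 had the highest Th level and the lowest Ddc level of the 6 DRG libraries, 8 reads, whereas male DRG 1 had the second-highest Th level and the highest Ddc level, 61 reads. An antisense transcript lies over Ddc, but shares no exon bases with it.

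The vesicle loader Slc18a2 (mm9 chr19:59335368-59370502, plus strand) was also near the floor. It had 0, 1.33 and 1.02 CPM in female DRG, 3.65, 2.63 and 0.788 CPM in male DRG, 0.528, 0.562 and 1.34 CPM in female TG, and 3.19, 1.04 and 3.73 CPM in male TG. No library had more than 39 reads, and the ganglia overlapped (log2 fold change of TG over DRG 0.10 ± 1.01, SE). The related transporter of endocrine cells, Slc18a1, was found at a similar low level, 2.78 ± 2.70 CPM in DRG and 4.95 ± 1.53 CPM in TG (SD, n = 6), with 0 reads in female DRG 1 and male DRG 1.

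Dbh (mm9 chr2:27020753-27038720, plus strand) had 0 reads in all 6 DRG libraries, that is 0 of 67165712 reads in genes, next to 4925 reads of Th. A count of 0 over these libraries together allows a level of up to 0.0447 CPM. Taking 3 reads in each library as the floor, Th was at least 160- to 401-fold higher than Dbh per kilobase of exon, from the DRG library with the fewest to that with the most Th reads. In TG, Dbh had 11 reads in female TG 2, 13 in male TG 1 and 4 in male TG 3, against 121, 60 and 45 reads of Th in the same libraries, and 0 reads in the other 3. The noradrenaline transporter Slc6a2 (mm9 chr8:95483978-95525566, plus strand) was scattered: 33 reads in female DRG 2, 4 in male DRG 2, 10 in male DRG 3 and 0 in the other 3 DRG libraries. In TG it had 15 and 22 reads in female TG 1 and 3, and 9, 3 and 16 reads in the male libraries. Its log2 fold change of TG over DRG, 0.59 ± 1.47 (SE), rose to 3.84 without female DRG 2, which held most of the DRG reads. Of the 3 libraries with Dbh reads, male TG 1 and 3 also had Slc6a2 reads and female TG 2 had none, while female DRG 2, with the most Slc6a2 reads, had no Dbh.

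Of the sympathetic markers, the DRG libraries held few or no reads of the noradrenergic regulators and Npy, but did hold Gata2, Insm1 and the nicotinic receptor subunits Chrna3 and Chrnb4, which passed the filter on low counts. Hand1, a transcription factor of sympathetic neuron formation, had 0 reads in all 12 libraries. In the DRG libraries the noradrenergic regulators Phox2a, Hand2 and Gata3 had 0 reads in all 6, and neuropeptide Y (Npy) had 5 reads in male DRG 1 and 1 in male DRG 3. In TG all reads of Phox2a, Hand2 and Npy lay in the 3 libraries that also held Dbh. Female TG 2 had 7 reads of Phox2a. Male TG 1 had 4 of Phox2a and 8 of Hand2, and male TG 3 had 10 of Npy. The vesicular acetylcholine transporter Slc18a3, found in cholinergic autonomic neurons, had 53 reads in male TG 1, 13 in male TG 3 and 0 in the other 10 libraries. Gata3, which acts later in sympathetic neuron formation and in other cells, had 5 reads each in female TG 1 and male TG 2 and 0 elsewhere. The peptidase-family gene Ecel1 had 14 reads in female DRG 2, 5 in female DRG 3, 2 in female TG 1 and 0 in the others. Female TG 1 and 3 and male TG 2 had 0 reads of Phox2a, Hand2, Npy and Slc18a3, and held 55, 103 and 101 reads of Th. Of the 10 sympathetic markers, 4 passed the filter, and 0 were called between the ganglia (adjusted p under 0.05 and fold change above 2) by edgeR's quasi-likelihood test with Benjamini-Hochberg adjustment, where 0.769% of all 14829 genes were called. DESeq2 also called 0, and 1 had an unadjusted p under 0.05, Chrna3. Of these 4 genes 3 had a log2 fold change of TG over DRG below 0, and the median was -1.07, against -0.01 over all genes tested. Insm1 averaged 1.80 ± 1.59 CPM over the DRG libraries and 0.574 ± 0.772 CPM over the TG libraries, Chrnb4 6.86 ± 4.33 and 3.86 ± 2.93 CPM, and Gata2 1.45 ± 0.830 and 3.47 ± 4.44 CPM (SD, n = 6). Chrna3, which sensory neurons also express, averaged 27.4 ± 23.4 CPM over the DRG libraries and 12.2 ± 10.4 CPM over the TG libraries (SD, n = 6). The summed level of the 10 markers was 16.5 to 83.6 CPM in DRG and 9.46 to 41.7 CPM in TG. It was highest in female DRG 3, where Chrna3 stood at 64.8 CPM and Chrnb4 at 14.0 CPM. That library also had the highest Th level, while male DRG 1, with the second-highest Th level, had a sum of 18.6 CPM.

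**Figure D2:**
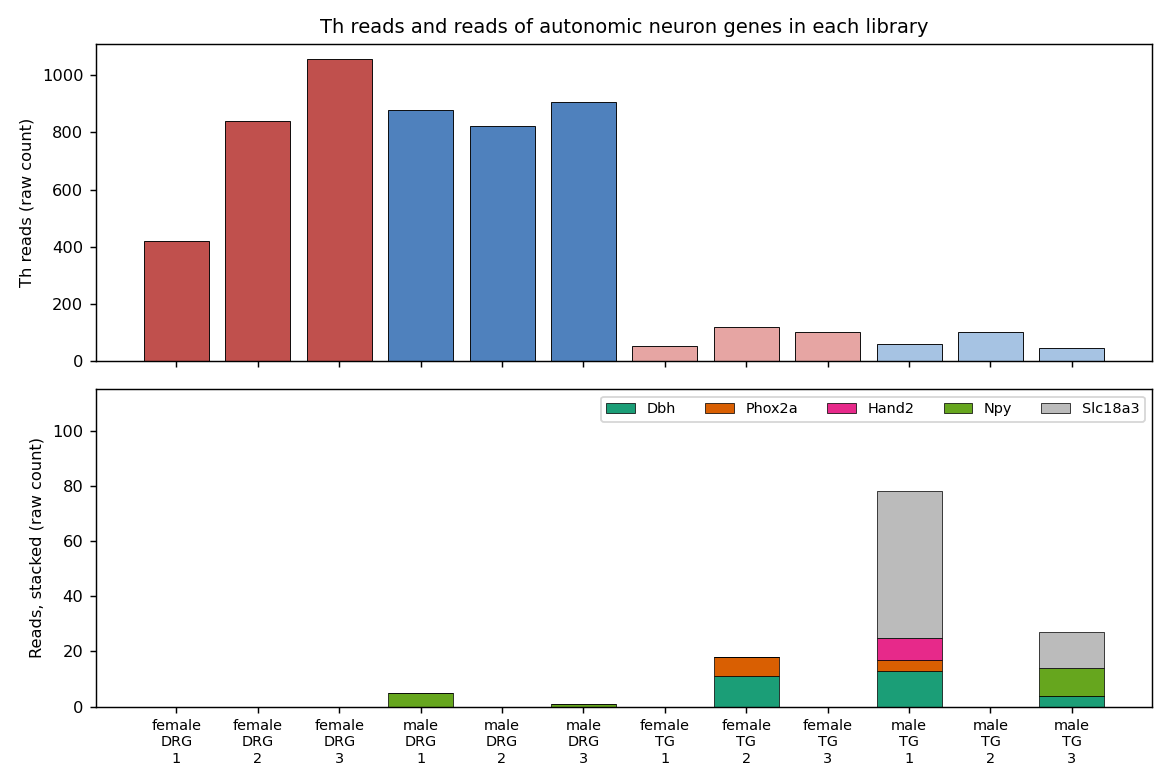
Raw reads of Th (upper panel) and stacked raw reads of Dbh, Phox2a, Hand2, Npy and Slc18a3 (lower panel) in each of the 12 libraries (horizontal axis). The DRG libraries hold 421 to 1056 reads of Th and, of the lower set, only 5 and 1 reads of Npy in male DRG 1 and 3, while those of the TG libraries stand in female TG 2 and male TG 1 and 3.

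Of 13 other genes of catecholamine cofactors, storage and breakdown, 11 passed the filter and 0 were called by edgeR. Of these, 2 had an unadjusted p under 0.05, Gch1 and Pcbd1, and DESeq2 called 1, Pcbd1, which recycles the cofactor. The median log2 fold change of TG over DRG was -0.36, against -0.01 over all genes tested. Gch1, which makes the cofactor of tyrosine hydroxylase, averaged 12.5 ± 6.66 CPM over the DRG libraries and 5.98 ± 1.91 CPM over the TG libraries (SD, n = 6) with an adjusted p of 0.323 from edgeR. Genes outside the 8 that were not called, apart from the sympathetic markers, were picked for naming after their values were seen. The dopamine transporter Slc6a3 and the adrenaline-forming enzyme Pnmt had 0 reads in all 12 libraries. The breakdown enzyme Maoa was present in every library.

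Among 14 catecholamine receptors, 8 passed the filter and 1 was called, Adra1a, an alpha-1 adrenergic receptor that couples to phospholipase C. Adra1a averaged 22.1 ± 5.87 CPM over the TG libraries and 2.42 ± 3.02 CPM over the DRG libraries (SD, n = 6), with no overlap between the ganglia, a log2 fold change of 3.24 ± 0.70 (SE) and an adjusted p of 0.0289 (edgeR). The DRG reads were uneven, from 0 in female DRG 1 to 91 in female DRG 2. The call of Adra1a was lost when single libraries were left out, with an adjusted p (edgeR) of 0.0635 without female TG 1, 0.0809 without male DRG 2, 0.0798 without male TG 2 and 0.0719 without male TG 3, with log2 fold changes of 3.14 to 3.32.

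The vesicular glutamate transporters were compared per kilobase of exon, the scale on which levels of different genes can be set side by side. Slc17a6 (mm9 chr7:58877200-58926495, plus strand) led in every library. It had 53.5, 70.4 and 150.0 CPM per kb in female DRG, 69.8, 77.7 and 137.4 in male DRG, 70.8, 62.4 and 111.2 in female TG and 110.1, 101.7 and 111.3 in male TG. Slc17a7 (mm9 chr7:52419291-52431508, plus strand) had 30.8, 21.5 and 18.0 CPM per kb in female DRG, 50.1, 39.3 and 17.1 in male DRG, 62.2, 36.8 and 27.4 in female TG and 34.6, 42.3 and 33.0 in male TG. Slc17a8 (mm9 chr10:89036765-89083998, minus strand) had 1.39, 6.31 and 6.96 CPM per kb in female DRG, 2.0, 3.32 and 5.36 in male DRG, 1.60, 2.84 and 3.16 in female TG and 2.87, 3.06 and 2.52 in male TG. All 3 overlapped between the ganglia, with log2 fold changes of TG over DRG of 0.01 ± 0.25 for Slc17a6, 0.45 ± 0.26 for Slc17a7 and -0.64 ± 0.36 for Slc17a8 (SE). The lowest Slc17a8 level was in female DRG 1, and without that library and female TG 3 its log2 fold change was -0.96.

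Of the summed level of the 3 transporters, Slc17a6 held 71.3 ± 12.2% in DRG and 68.6 ± 9.97% in TG, Slc17a7 25.4 ± 13.2% and 29.4 ± 10.1%, and Slc17a8 3.30 ± 1.80% and 1.99 ± 0.53% (SD, n = 6). For Slc17a6 and Slc17a7 the SD between libraries of either ganglion was larger than the difference between the ganglia, and for Slc17a8 the difference was larger than the SD in TG and smaller than that in DRG. The shares of Slc17a7 were 36.0, 21.9 and 10.3% in female DRG and 41.1, 32.7 and 10.7% in male DRG. They were 46.2, 36.1 and 19.3% in female TG and 23.4, 28.7 and 22.5% in male TG. In all 4 groups the library numbered 3 had the lowest share, with the highest Slc17a6 level of its group, though in male TG by a small margin.

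**Figure D3:**
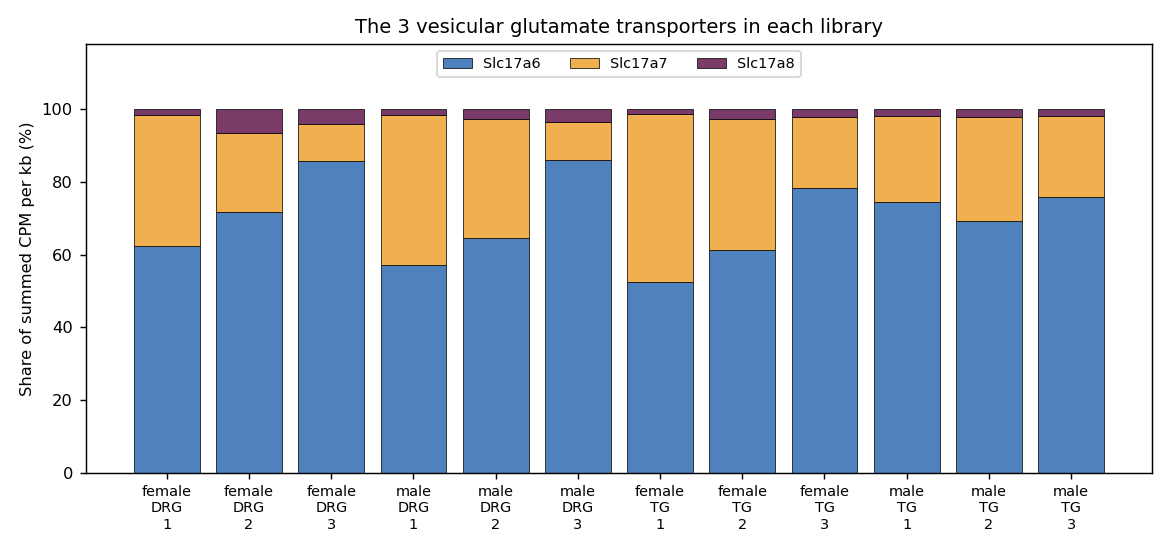
Share (%) of Slc17a6, Slc17a7 and Slc17a8 in their summed CPM per kilobase of exon, stacked for each of the 12 libraries. Slc17a6 holds 52.6 to 85.9%, Slc17a7 10.3 to 46.2% and Slc17a8 1.19 to 6.43%.

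Slc17a7 and Slc17a6 differ in base composition, with 58.8% and 43.3% GC in their exons. A trend over all genes was set beside their ratio. In each library the median deviation in log2 CPM of 2899 GC-poor genes (at most 45% GC) was subtracted from that of 2324 GC-rich genes (at least 55% GC), a measure chosen after the ratios were seen. It ranged from -0.66 in male DRG 3, where Slc17a7 stood at 0.125 of Slc17a6 per kilobase, to 0.85 in female TG 1, where it stood at 0.879, and to 0.97 in female TG 2, with 0.589. Other libraries departed from such an order. Male DRG 1, at 0.10, had a ratio of 0.718, and male DRG 2, at -0.10, had 0.506. Male TG 1, at -0.51, had 0.314, where female DRG 3, at -0.49, had 0.120. The ratio ran from 0.120 to 0.879 over the 12 libraries, a 7.33-fold range. With each library's trends over GC content and exon length taken off, also an addition made after the data were seen, it ran from 0.164 to 0.590, a 3.60-fold range. The part of base composition in either range was not tested.

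**Figure D4:**
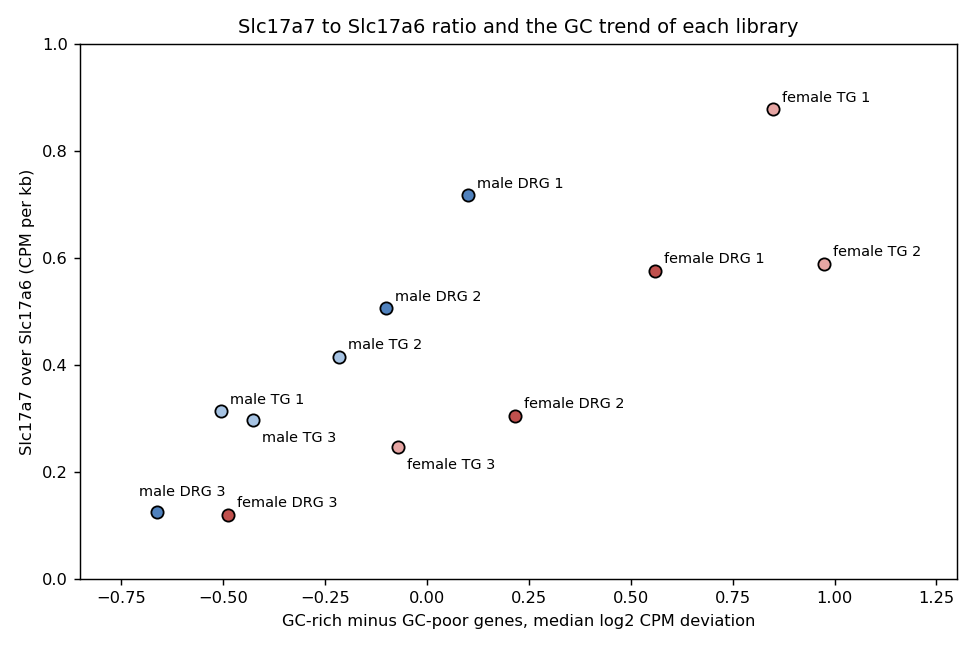
Ratio of Slc17a7 to Slc17a6 in CPM per kilobase of exon (vertical axis) against the median log2 CPM deviation of GC-rich minus GC-poor genes (horizontal axis), with a point for each library, coloured by group. The DRG libraries numbered 3 lie lowest on the left at 0.120 and 0.125, and female TG 1 lies highest at 0.879.

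By level per kilobase, the order in DRG was Slc17a6 (93.1 ± 40.2 CPM per kb), Th (31.4 ± 5.66), Slc17a7 (29.5 ± 13.2), Slc17a8 (4.22 ± 2.32), Ddc (0.732 ± 0.393), Slc18a2 (0.412 ± 0.350), Slc6a2 (0.111 ± 0.186) and Dbh at 0 (SD, n = 6). The means of Th and Slc17a7 differed by less than the larger of their SDs, as did those of Ddc and Slc18a2, Slc18a2 and Slc6a2, and Slc6a2 and Dbh. The order in TG was Slc17a6 (94.6 ± 22.1 CPM per kb), Slc17a7 (39.4 ± 12.2), Th (2.79 ± 0.87), Slc17a8 (2.68 ± 0.57), Ddc (0.715 ± 0.684), Slc18a2 (0.455 ± 0.364), Slc6a2 (0.153 ± 0.117) and Dbh (0.152 ± 0.191). In TG, the means of Th and Slc17a8 differed by less than the larger of their SDs, as did those of all neighbours from Ddc down. For these orders the genes were not compared within libraries, and no difference was tested. Per library, Th exceeded Slc17a8 5.01- to 17.4-fold in DRG and lay between 0.743 and 1.45 of it in TG.

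The 15 other C-LTMR markers were all found in both ganglia, with at least 1 read in each of the 12 libraries. Such bulk reads do not show which neurons held them, so their presence in a ganglion does not by itself show C-LTMRs there. Fam19a4, a secreted protein of these neurons, averaged 138 ± 49.7 CPM over the DRG libraries and 89.8 ± 49.98 CPM over the TG libraries (SD, n = 6), and Gfra2, the neurturin receptor, had 102 ± 24.4 and 84.2 ± 26.6 CPM. Both overlapped between the ganglia, with adjusted p of 0.477 and 0.776 (edgeR, 12 libraries). Of the 15 markers, 10 had a log2 fold change below 0, and the median was -0.29, from -1.69 for Bhlha9 to 0.78 for Rarres1. By an adjusted p under 0.05 with a fold change above 2, 1 was called higher in DRG and 0 higher in TG, where 0.290% and 0.479% of all genes were called. In either direction 7 had an unadjusted p under 0.05, and DESeq2 called 2, Ceacam10 and Bhlha9. Ceacam10, a cell adhesion molecule, was that gene, at 22.7 ± 9.11 CPM over the DRG libraries and 9.30 ± 7.61 CPM over the TG libraries, with a log2 fold change of -1.59 ± 0.33 (SE) and an adjusted p of 0.0194 (edgeR). The log2 fold change of Ceacam10 was -2.21 in the female libraries and -0.98 in the male ones, and the call was lost, with adjusted p above 0.05 (edgeR), without female TG 1 (0.0720), male DRG 1 (0.0606), male DRG 2 (0.0684) or male TG 3 (0.0579). Ret, the shared signalling receptor of the neurturin family, was 1.72-fold higher in TG with no overlap and an adjusted p of 0.0307 (edgeR).

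Per kilobase, Th stood at 0.366 to 0.677 of Fam19a4 in the DRG libraries and at 0.0342 to 0.194 of it in the TG libraries. Th was chosen on this contrast and Fam19a4 overlapped between the ganglia, so the lack of overlap in their ratio is no separate result. The ratio also differed between the sexes of a ganglion, from 0.610 to 0.677 in female DRG and from 0.366 to 0.511 in male DRG, and from 0.0716 to 0.194 in female TG and from 0.0342 to 0.0593 in male TG. The males were lower without overlap in both, a split noticed in the data and not tested. Th itself overlapped between the sexes in both ganglia. Fam19a4 had 72.7, 102 and 135 CPM in female DRG and 197, 195 and 129 CPM in male DRG. In TG it had 28.4, 46.4 and 105 CPM in females and 147, 143 and 68.8 CPM in males. The levels of 17.5% of all genes in DRG and 23.8% in TG did not overlap between the sexes. These shares are for single genes, and the share for ratios of gene pairs was not computed.

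**Figure D5:**
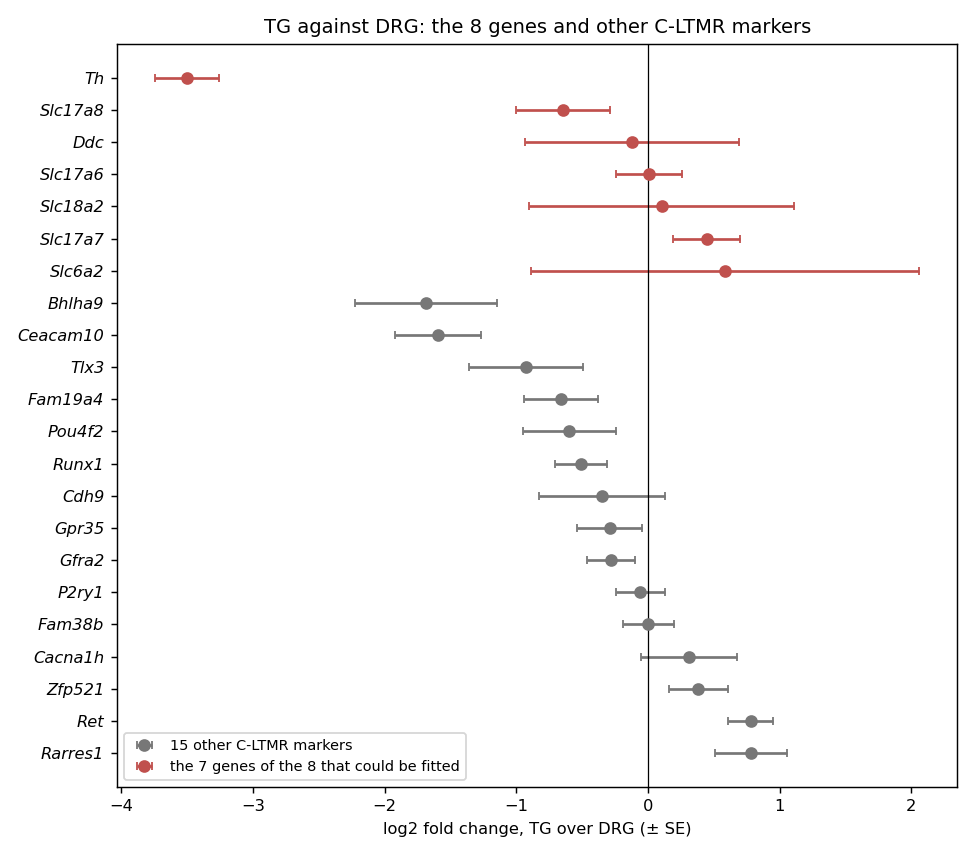
Log2 fold change of TG over DRG (horizontal axis, ± SE, 12 libraries) for the 7 of the 8 genes that passed the filter (red) and for the 15 other C-LTMR markers (grey). Th lies at -3.50, and the other C-LTMR markers lie between -1.69 and 0.78.

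Other neuron classes gave the scale for these differences. Of 10 markers of myelinated low-threshold neurons and proprioceptors, 1 was called, Etv1, a transcription factor of proprioceptors, at 69.3 ± 6.51 CPM over the DRG libraries and 31.0 ± 6.20 CPM over the TG libraries (SD, n = 6, adjusted p = 0.00255, edgeR). Of 10 nociceptor class markers, 1 was called, the cold channel Trpm8, at 57.7 ± 8.50 CPM over the DRG libraries and 366 ± 75.9 CPM over the TG libraries (log2 fold change 2.65 ± 0.19, SE, adjusted p = 1.39e-07, edgeR). The other 9 had log2 fold changes below 0, and of them Mrgprd, a receptor of non-peptidergic nociceptors (-0.78 ± 0.17, adjusted p = 0.0307, edgeR), and the heat and capsaicin channel Trpv1 (-0.76 ± 0.17, adjusted p = 0.0425, edgeR) passed the adjusted p but not the 2-fold limit (SE). DESeq2 called 2 genes in each, with Pvalb and Nppb added. The median log2 fold changes of these lists were 0.02 and -0.63. In the list of 15 genes of glutamate supply and uptake, 12 passed the filter and 0 were called by edgeR or DESeq2, with an unadjusted p under 0.05 for 4. The pan-neuronal, satellite glia, Schwann cell, macrophage, fibroblast and endothelial lists, of 5 to 10 genes, had 0 called genes by either tool, and at most 1 gene a list had an unadjusted p under 0.05. Of 5 markers of chromaffin and small intensely fluorescent cells, catecholamine cells of ganglia and adrenal medulla, 4 passed the filter and Chga, a granin of dense-core vesicles that many neurons express, was called (54.6 ± 15.4 CPM over the TG libraries, 26.2 ± 8.61 CPM over the DRG libraries, adjusted p = 0.0177, edgeR). The adjusted p of Chga lay between 0.0529 and 0.0874 without female DRG 2, female TG 1, female TG 2, male DRG 1, male DRG 2, male TG 2 or male TG 3.

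Whether females and males differ was the question of the study, and it was not used to choose the 8 genes. In DRG, 6 of the 8 passed the filter on low counts, and in TG 7 did. In DRG and in TG 0 were called by edgeR's quasi-likelihood test with Benjamini-Hochberg adjustment over all genes. In that test 0 had an unadjusted p under 0.05, and 0 were called by DESeq2. Criteria modelled on those of the study were met by 0: fold change above 2, unadjusted p under 0.05 (edgeR) and a higher group mean above 1 CPM. The study set its expression limit in RPKM, which is scaled by gene length, so these are not counts under its own rule. Over all genes, 0.0358% in DRG and 0.0357% in TG were called by adjusted p, 11.8% and 20.7% had an unadjusted p under 0.05, and 4.97% and 7.41% met these modelled criteria. In 0 of the 8 genes were the female and male libraries of a ganglion without overlap, against 17.5% of all genes in DRG and 23.8% in TG. The adjusted p of the members ran from 0.574 to 0.972 in DRG and from 0.385 to 0.940 in TG.

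In DRG the mean Th level was 71.4 ± 19.9 CPM for females and 76.9 ± 5.39 CPM for males (SD, n = 3). The log2 fold change of female over male was -0.10, with an interval of -0.68 to 0.47 (estimate ± 2 SE). The sign turned to 0.09 without female DRG 1. In TG the means were 7.56 ± 2.49 CPM and 5.62 ± 1.29 CPM, and the log2 fold change was 0.48 with an interval of -0.47 to 1.42. Ddc had 2.10 ± 1.23 CPM in female and 4.28 ± 1.49 CPM in male DRG, and 1.66 ± 1.46 and 4.56 ± 3.71 CPM in TG. Slc18a2 was placed in the same way, with 0.784 ± 0.697 and 2.35 ± 1.45 CPM in female and male DRG and 0.810 ± 0.459 and 2.65 ± 1.43 CPM in TG. The intervals of their log2 fold changes, -3.18 to 1.14 and -4.87 to 1.78 in DRG and -3.77 to 0.98 and -3.77 to 0.46 in TG, show that at these low counts a difference of several-fold could not have been told from none.

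For Slc17a6 the log2 fold change of female over male was -0.07 (-0.86 to 0.72) in DRG and -0.36 (-0.85 to 0.12) in TG. The TG value turned on 1 library: without female TG 3, whose Slc17a6 level lay within the range of the male ones, it was -0.69 with an adjusted p of 0.0214 (edgeR), and 2036 of 14379 genes were then called against 5 of 14009 with that library. With each library's GC and length trends removed it was -0.14. For Slc17a7 the value was -0.58 (-1.33 to 0.17) in DRG and 0.25 (-0.35 to 0.86) in TG, the latter turning to -0.36 with these trends removed. For Slc17a8 it was 0.44 (-0.68 to 1.56) in DRG and -0.11 (-0.81 to 0.60) in TG. The sex effects of the ganglia were also compared directly: 0 of the 7 members fitted were called, the smallest unadjusted p was 0.133, for Slc17a7, and 0 had an unadjusted p under 0.05, as 1.97% of all 14829 genes did, while 0% of them were called by adjusted p with either edgeR or DESeq2.

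Likeness to Th was measured as the root mean square difference of log2 CPM over the 12 libraries, each gene centred on its own mean, among 13916 genes with a mean of at least 1 CPM. The nearest genes were Sstr1 (0.503), Hoxc10 (0.728), Hoxc6 (0.757), Gm53 (0.827) and Il7 (0.860), where the median gene lay at 1.87. Sstr1, a somatostatin receptor, averaged 10.6 ± 2.20 CPM over the DRG and 1.48 ± 0.45 CPM over the TG libraries (SD, n = 6), from 7.62 to 13.3 CPM and from 1.06 to 2.17 CPM. Hoxc10 and Hoxc6, which specify position along the trunk, had 3.00 ± 2.26 and 3.19 ± 1.84 CPM in DRG and were at or near 0 in TG. Il7, a cytokine, averaged 7.18 ± 3.89 CPM over the DRG and 1.55 ± 0.52 CPM over the TG libraries. Closest to Dbh were Ecscr (0.770), Veph1 (0.801), Tagln (0.807), Slc8a1 (0.833) and Cytl1 (0.845), with a median gene at 1.22, so the low Dbh counts set no gene far apart from the rest.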

How the data were processed

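RNA was sequenced in 12 libraries, 3 of each sex from each of DRG and TG, grouped and numbered by their titles. The authors made strand-marked libraries from ribosomal-RNA-depleted total RNA and, per the labels, converted runs with bcl2fastq, aligned with TopHat2 to mm9 and counted with HTSeq. The deposited values are raw counts of reads for each gene symbol, not normalized. Tool versions, the annotation and the strand setting of the counting are not given in the sources used here, and without strand, reads of a gene and of an antisense partner cannot be told apart. Each file ended with 5 summary lines that name no gene; they held 66.1 to 74.4% of each file's total and stayed out of library sizes and tests.

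The 8 genes and all gene lists were chosen with earlier results of these data known, and some genes of the lists are not reported here. By the rule set beforehand, genes were named if they were among the 8, defined sympathetic neurons, were called in a list (up to 4 per direction), or were among the 5 nearest in pattern to Th or to Dbh. Any other gene named was picked after its values were seen. Positions and exon lengths came from GENCODE vM1 (mm9), which matched 21672 of 22609 genes (95.9%), 45 through an older symbol. CPM are TMM-scaled. Fits used edgeR 4.0.16 (glmQLFit, glmQLFTest, filterByExpr, Benjamini-Hochberg) in R 4.3.3: 12 libraries with 4 group means for TG against DRG and for the difference of sex effects, and 6 libraries of a ganglion for sex. Genes were called at an adjusted p below 0.05 with more than a 2-fold change. The SE of a log2 fold change was worked back from that fold change and the F statistic of the edgeR test. SE and the intervals built on them are therefore approximate, above all at low counts. The study's DESeq test was replaced by edgeR, with DESeq2 1.42.0 as an alternative. The fits were tested on simulated data with less spread between libraries than these data had, so that test does not measure how well they work at the spread seen here. Alternatives were other scalings, no filter, GC and length trends removed, a replicate block, single libraries left out, and both libraries that stand apart left out. Counts of 0 and floors of 3 reads cover counting error only.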

Additional observations from a re-analysis of the deposited data

Results flagged for a closer look

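A library lay far from the others of its ganglion in 2 of 16 sets of 6 libraries (each of the 8 genes in each ganglion) by Dixon's test. Chance alone meets it in about 1 of 20 sets of normally distributed values, a rate that need not hold for low counts such as these. The set of Dbh in DRG, with 0 reads throughout, could not be flagged. Ddc stood at 8.83 CPM in male TG 1, 97 reads, where the next TG library had 2.73 CPM. The same library held the most reads of Dbh and Slc18a3 of the 12. Slc6a2 stood at 2.94 CPM in female DRG 2, 33 reads, where the next DRG library had 0.788 CPM, and that library had 0 reads of Dbh and of the sympathetic markers Phox2a and Hand2, but the most Ecel1 reads of the 12 libraries, 14, and the most Gata2 reads of the DRG libraries, 29.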

How the results depend on the processing

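The separation of the ganglia by Th kept its direction under all 21 alternatives, with log2 fold changes of TG over DRG from -3.77 to -3.23. The fold changes of Slc17a6, Slc17a7, Slc17a8, Ddc and Slc18a2 moved by less than the spread between libraries. That of Slc6a2 moved from 0.59 to 2.53 with the replicate block, 2.45 with the block and the GC and length trends removed, and 3.84 without female DRG 2.

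No member was called between the sexes under any alternative with the 2-fold limit. Signs near 0 turned as follows, for which the cause was not tested. With library totals as the scale, female over male was 0.057 for Th and 0.070 for Slc17a6 in DRG and 0.013 for Slc17a8 in TG. Library totals also moved the median of all genes from 0.02 to 0.19 in DRG and from 0.05 to 0.16 in TG. With GC and length trends removed it was 0.025 for Th in DRG, and -0.36 for Slc17a7 and 0.070 for Slc17a8 in TG. In the difference of sex effects, Slc18a2 turned to 0.21 with these trends removed and Ddc to 0.44 without both libraries that stand apart. Leaving out single libraries gave, in DRG, -0.30 to 0.090 for Th and -0.63 to 0.34 for Slc17a6, and in TG, -0.38 to 1.02 for Slc6a2, -0.19 to 0.43 for Slc17a7 and -0.34 to 0.092 for Slc17a8. For the difference of sex effects it gave -0.98 to 0.48 for Ddc, -0.70 to 0.46 for Slc18a2, -2.08 to 5.44 for Slc6a2 and -0.71 to 0.21 for Slc17a6.

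In the 7 lists of transmitter and neuron genes, 4 genes were called. DESeq2 called 8, both libraries left out gave 7, female libraries alone 1 and male libraries alone 2, where fewer samples were fitted. Single libraries left out gave 2 to 6, with 2 without female TG 1, male DRG 2 or male TG 3.

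Whether same-numbered libraries share animals or a preparation is not given in the sources used here. The numbers were not treated as pairs, by a rule that asked every pair to correlate above 0.1. Failing that rule does not show that the libraries are unpaired. Correlations of same-numbered deviations ran from 0.0317 to 0.168 between the sexes in DRG (2 of 3 pairs over 0.1), from -0.0984 to 0.00983 in TG (0 of 3), and from 0.0277 to 0.216 between ganglia (4 of 6). Among the 3 libraries of the same sex in the other ganglion, 8 of 12 libraries correlated best with the one of their own number. With the replicate block, calls of TG against DRG went from 114 to 185, Slc6a2 turned to -0.33 in TG (-0.49 with trends removed) and, in the difference of sex effects, to 2.28 (2.32 with trends removed). Slc18a2 there turned to 0.51 and 0.80, while with block and trends removed Slc17a7 and Slc17a8 in TG stood at -0.41 and 0.036. Depth limits Dbh, Slc6a2, Slc18a2 and Ddc, with at most 97 reads in a library.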
